A study of Mus musculus with 12 samples.

Results

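The genes described here make, bind and break down hyaluronan in cultured mouse fibro/adipogenic progenitors (FAPs), the stromal cells of skeletal muscle that can form fibroblasts and adipocytes. They are the hyaluronan synthases Has1, Has2 and Has3, the hyaluronidases Hyal1 and Hyal2, the hyaluronan receptor Cd44, the proteoglycan Vcan (versican) and Tnfaip6 (TSG-6), which transfers protein chains onto hyaluronan. Members were chosen by name: a member is a transcript cluster (the unit an Affymetrix array reports for a gene) to which the platform annotation gives that gene symbol alone. Of the 8 genes, 7 had such a cluster, 1 each, among the 21789 clusters with exactly 1 symbol. Hyal1 had none, because both clusters that carry its symbol also carry Naa80, so no level is given for it. The 8 genes were chosen with earlier results of these data known, so their levels and differences are a description of these arrays.

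Total RNA was hybridised to 12 Mouse Gene 1.0 ST arrays, with 2 arrays in each of 6 groups. All groups held FAPs from the hindlimb muscles of uninjured wild-type C57/Bl6 male mice aged 8 to 12 weeks, and the labels state that a biological replicate pools the cells of 2 mice. Cells grew for 2.5 days and were transfected with an antisense oligonucleotide (AMO) at 10 µM for 48 hours. They were then transfected again with the same AMO, without PDGF-AA (labelled 0 uM) or with it (labelled 50 uM), for a further 48 hours. The AMOs are labelled control AMO, pA AMO and 5'ss AMO, and each was used with and without PDGF-AA. The study's title concerns intronic polyadenylation of PDGFRα, the receptor that PDGF-AA binds, and the labels do not spell out the AMOs' target sites.

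Hyaluronan is a long, unbranched sugar polymer that the Has enzymes build at the plasma membrane from UDP-activated sugars and push out into the matrix. There it binds Cd44 on cells and is cross-linked by versican and by the protein chains that Tnfaip6 transfers, and hyaluronidases cut it into smaller pieces. In connective tissue cells Has2 is usually the main synthase, and a matrix rich in hyaluronan and versican accompanies wound repair, inflammation and fibrosis.

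The median log2 value of an array was 6.04 to 6.23. Of the 10 FAP markers listed, 9 had a cluster, and their mean level was at least 10.76 on every array, with Pdgfra between 12.72 and 12.92. The dim mark of 6.102 is the 40th percentile of cluster means. Of the 7 macrophage and leukocyte markers 2 were above it (Cd68 at 7.08 to 7.44 and Lyz2 at 5.86 to 7.48) and 5 were not, Ptprc among them at 4.75 to 5.35. Of the 6 endothelial markers 2 were above it (Tek at 8.51 to 9.26 and Cdh5 at 6.84 to 7.50) and 4 were not, Pecam1 among them at 5.36 to 5.88. Of the 9 myogenic markers 8 were above the mark, and the list mean was 6.45 to 7.49 over the arrays. Their widest spreads between arrays were 7.20 to 9.15 for Myh3 and 7.24 to 9.08 for Des, and the narrowest 6.05 to 6.46 for Cdh15. Of the 6 smooth muscle and pericyte markers 3 were above the mark (Cspg4 at 6.32 to 6.82, Notch3 at 6.96 to 7.34 and Kcnj8 at 7.18 to 7.93). Myh11, Cnn1 and Rgs5 were not. Of the 5 Schwann markers 3 had a cluster, and 2 were above the mark (Sox10 at 6.20 to 6.51 and Ngfr at 6.94 to 7.40). The 7 adipocyte markers averaged 8.40 to 8.77 on the replicate 2 arrays and 7.13 to 7.79 on 5 of the 6 replicate 1 arrays. The 5'ss AMO array with PDGF-AA of replicate 1 stood apart from these at 9.36, and the larger averaged differences that use it are followed by values without it.

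Promoter sequence is shown for Tnfaip6, Vcan and Cd44. With Has2, Tnfaip6 and Vcan were the members lower under pA AMO than under 5'ss AMO at every dose and replicate number. Cd44 is shown as 1 of the members that were not. Each stretch holds the 250 bases before the annotated start, 5′ to 3′ on the gene's strand, from RefSeq on GRCm38.p6, whose table held 6 of the 8 members (Has2 and Has3 are not among them). Capitals mark matches, on either strand, to 6 short motifs. They are the TATA box with the letters TATAAA, the CCAAT box, the GC box with the letters GGGCGG, the AP-1 motif with the letters TGANTCA, the C/EBP motif with the letters TTGCNNAA, and the NF-kappaB motif.
Tnfaip6 (chr2:52037863-52038112, plus strand): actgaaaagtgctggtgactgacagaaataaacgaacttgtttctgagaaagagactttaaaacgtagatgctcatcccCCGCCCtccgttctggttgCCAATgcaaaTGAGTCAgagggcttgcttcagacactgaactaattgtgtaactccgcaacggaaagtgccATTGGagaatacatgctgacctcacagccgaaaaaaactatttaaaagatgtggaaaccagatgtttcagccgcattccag
Vcan (chr13:89742513-89742762, minus strand): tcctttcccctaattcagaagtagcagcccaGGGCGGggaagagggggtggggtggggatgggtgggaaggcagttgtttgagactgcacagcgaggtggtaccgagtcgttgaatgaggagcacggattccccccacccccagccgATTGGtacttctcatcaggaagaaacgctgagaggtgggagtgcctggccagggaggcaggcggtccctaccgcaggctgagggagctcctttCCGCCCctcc
Cd44 (chr2:102901666-102901915, minus strand): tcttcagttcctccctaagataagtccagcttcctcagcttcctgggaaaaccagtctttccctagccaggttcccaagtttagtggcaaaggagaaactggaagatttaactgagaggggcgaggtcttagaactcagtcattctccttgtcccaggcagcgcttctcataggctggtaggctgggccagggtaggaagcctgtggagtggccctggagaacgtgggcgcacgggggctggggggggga
In the Tnfaip6 stretch CCAAT was found with its leftmost base 152 and 81 bases before the start, the GC box 171 before it and the AP-1 letters 142 before it. The Vcan stretch held the GC box 219 and 10 bases before the start and CCAAT 103 before it, and the Cd44 stretch held none of the 6. Among 32851 mouse promoters of the same length, 33.8% held CCAAT, 32.7% the GC box and 6.75% the AP-1 letters, 12.4% held TATAAA, 9.56% the C/EBP letters and 1.41% the NF-kappaB motif. The CCAAT and GC boxes were thus in the Tnfaip6 and Vcan stretches alike, and the AP-1 letters in that of Tnfaip6. The boxes were not confined to these members. Of the stretches not shown, Has1 held CCAAT 203 bases before the start and Hyal2 the GC box 47 before it. Hyal1 held both, CCAAT 49 and the GC box 77 and 72 bases before the start. Like Cd44, Has1 and Hyal2 were not lower under pA AMO than under 5'ss AMO at every dose and replicate number. A match is a run of letters and not a measured binding site.

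Of the synthases, Has2 and Has1 were above the dim mark and Has3 was below it. Has2 (cluster 10428707), the synthase of most mesenchymal cells, read 8.94 and 9.17 under control AMO, 8.62 and 8.76 under pA AMO and 9.16 and 9.31 under 5'ss AMO, each without PDGF-AA in replicates 1 and 2. With PDGF-AA it read 8.54 and 8.85, 8.44 and 8.66, and 8.93 and 9.30 in the same order. The 4 arrays under 5'ss AMO all lay above the 4 under pA AMO, and the control arrays lay across the gap between them.

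Group means for Has2 fell into an upper and a lower set. The upper set held 5'ss AMO without PDGF-AA at 9.23 ± 0.11 (SD, n = 2 here and throughout), 5'ss AMO with PDGF-AA at 9.12 ± 0.26 and control AMO without PDGF-AA at 9.06 ± 0.167. The lower set held control AMO with PDGF-AA at 8.70 ± 0.224, pA AMO without PDGF-AA at 8.69 ± 0.0954 and pA AMO with PDGF-AA at 8.55 ± 0.16. Between the sets the gap was 0.36, larger than either neighbour's SD and with no overlap, while neighbours within each set overlapped.

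**Figure D1:**
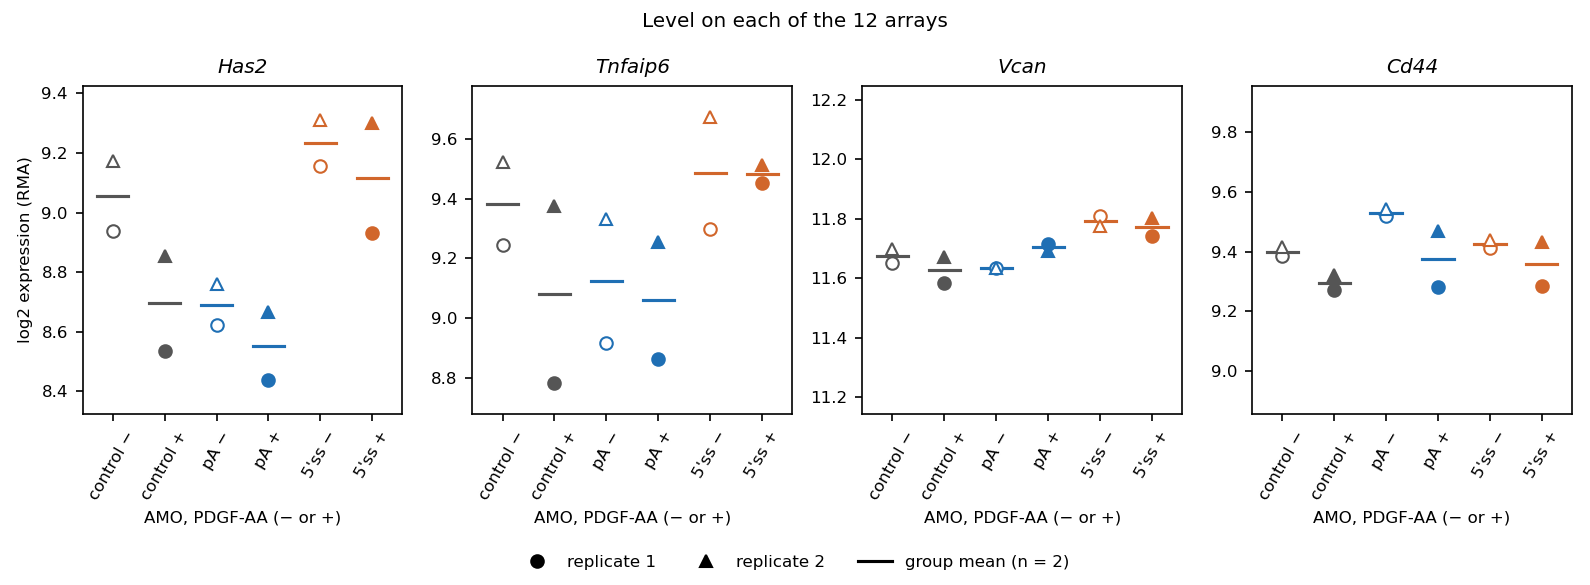
RMA log2 level of Has2, Tnfaip6, Vcan and Cd44 (vertical axes, each spanning 1.1 log2 units) on the 12 arrays by AMO and PDGF-AA (horizontal axis; open symbols without, filled with PDGF-AA; circles replicate 1, triangles replicate 2; lines group means, n = 2). Has2 and Vcan lie higher on all 4 arrays under 5'ss AMO than on all 4 under pA AMO, and Has2 spans 0.87 against 0.22 for Vcan.

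Has1 (cluster 10448117), a synthase usually expressed at low levels, lay between 6.01 and 6.53 with a median of 6.30, and its lowest and highest arrays were the replicates 2 and 1 of control AMO with PDGF-AA. Has3 (cluster 10575095), a synthase that makes shorter chains, lay between 4.36 and 4.89, below the dim mark on every array. Neighbouring group means overlapped throughout for both genes, with group means of 6.24 to 6.38 for Has1 and 4.51 to 4.66 for Has3. The order of the groups for these synthases is therefore not resolved by 2 arrays a group.

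Hyal2 (cluster 10588683), a membrane-anchored hyaluronidase that cuts long chains, lay between 6.82 and 7.16. Its group mean was highest under control AMO without PDGF-AA, at 7.09 ± 0.108, and lowest under pA AMO with PDGF-AA, at 6.89 ± 0.105. Every neighbour in that order overlapped with the next.

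**Figure D2:**
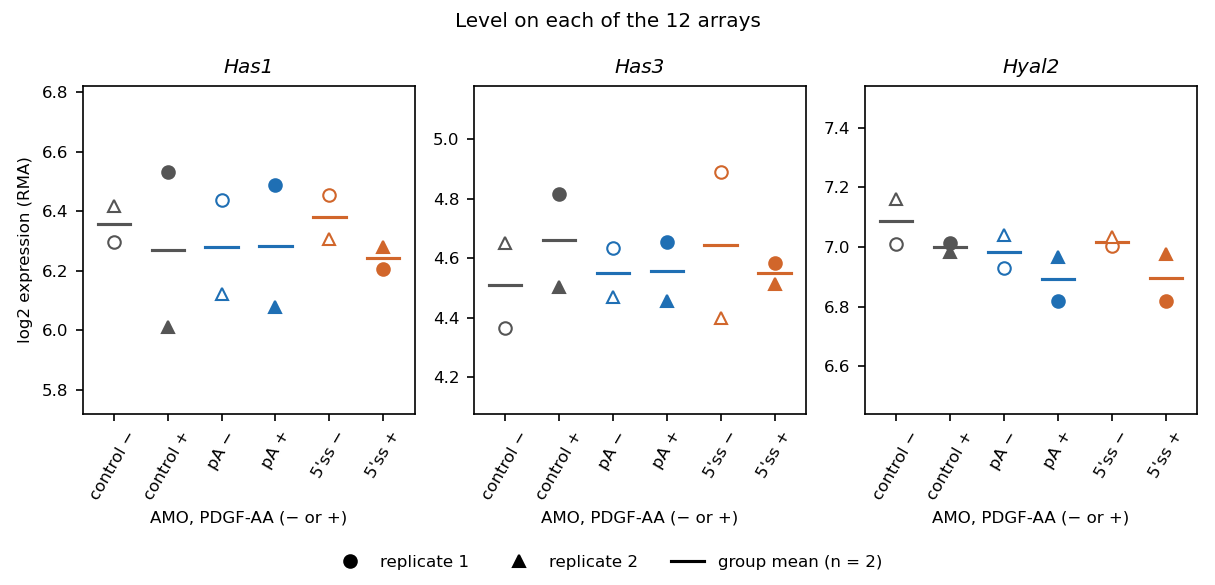
RMA log2 level of Has1, Has3 and Hyal2 (vertical axes, each spanning 1.1 log2 units) on the 12 arrays by AMO and PDGF-AA (horizontal axis; symbols as for Has2). Replicates of a group lie as far apart as the groups do for Has1 and Has3, and Hyal2 stays within 6.82 to 7.16.

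Cd44 (cluster 10485405), the main cell-surface hyaluronan receptor, read 9.39 and 9.42 under control AMO, 9.52 and 9.54 under pA AMO and 9.41 and 9.44 under 5'ss AMO without PDGF-AA. With PDGF-AA it read 9.27 and 9.32, 9.28 and 9.47, and 9.28 and 9.43. The pA AMO group without PDGF-AA was highest, 0.10 above 5'ss AMO without PDGF-AA and clear of it, and the other neighbours overlapped.

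Vcan (cluster 10410931), a large proteoglycan that binds hyaluronan, read 11.65 and 11.70 under control AMO, 11.63 and 11.63 under pA AMO and 11.81 and 11.77 under 5'ss AMO without PDGF-AA. With PDGF-AA it read 11.58 and 11.67, 11.72 and 11.69, and 11.74 and 11.80. The 4 arrays under 5'ss AMO were the highest of the 12, though the whole spread was 0.22. In the order of its group means, gaps of 0.07 (5'ss AMO to pA AMO, both with PDGF-AA) and 0.04 (control AMO to pA AMO, both without) had no overlap, and the other neighbours overlapped.

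Tnfaip6 (cluster 10472050) read 9.24 and 9.52 under control AMO, 8.92 and 9.33 under pA AMO and 9.30 and 9.68 under 5'ss AMO without PDGF-AA. With PDGF-AA it read 8.78 and 9.38, 8.86 and 9.26, and 9.45 and 9.51. Its group means ran in nearly the same order as those of Has2, from 9.49 ± 0.267 under 5'ss AMO without PDGF-AA to 9.06 ± 0.278 under pA AMO with PDGF-AA. Replicate 2 was above replicate 1 in every group, and all neighbours in the order overlapped.

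Has2 and Tnfaip6 varied more between arrays than most genes did. Their ranges over the 12 arrays, 0.87 and 0.89, were at the 96.3 and 96.6 percentiles of the ranges of clusters above the dim mark, while those of Cd44 (0.27) and Vcan (0.22) were at 22.3 and 11.5. Part of this spread followed the replicate number. Replicate 2 exceeded replicate 1 by 0.353 on average for Tnfaip6, by 0.24 for Has2 and by 0.0782 for Cd44, in 6 of 6 groups each, and the adipocyte markers were higher in replicate 2 in 5 of 6 groups. Whether cell composition plays a part in these differences was not tested. Fewer cells of a type and less RNA per cell cannot be told apart in these bulk samples.

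The comparison of pA AMO under 5'ss AMO gave the largest difference of the members. Has2 was lower under pA AMO by 0.53 and 0.55 (replicates 1 and 2) without PDGF-AA and by 0.49 and 0.64 with it. Averaged over PDGF-AA, the log2 difference was -0.55 (SE 0.114), a level 1.47-fold lower under pA AMO. In the limma fit of all 21789 clusters it had an unadjusted p of 0.000617 and an adjusted p of 0.846, and 0.0597% of clusters had a smaller p.

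Each group has a replicate 1 and a replicate 2, and same-numbered arrays varied together. With the replicate number as a block, the error of the Has2 difference was 0.057 and the adjusted p was 0.0347. In that fit 1 of the 7 members passed the threshold of 0.05, beside 0.0275% of all clusters, whereas without the block 0 of 7 passed, beside 0% of all clusters. At an unadjusted p under 0.05 without the block there were 2 of 7 members (Has2 and Tnfaip6), beside 3.47% of clusters. With the block there were 3 of 7 (Has2, Tnfaip6 and Vcan), beside 8.51% of clusters. The other clusters with an adjusted p under 0.05 with the block were those of Kng2, Tgfbi, Comp, Cxcl13 and Gfra1. They are named after their values were seen. The Has2 call was not stable when the blocked fit was repeated without each array in turn, a check added after the data were seen. The difference stayed between -0.59 and -0.52, the adjusted p ran from 0.0352 to 0.257, and it was under 0.05 only without replicate 2 of 5'ss AMO with PDGF-AA. Without the array high in adipocyte markers, replicate 1 of 5'ss AMO with PDGF-AA, the difference was -0.65 in the fit without the block, and in the blocked fit it was -0.59 with an adjusted p of 0.0871.

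Tnfaip6 was also lower under pA AMO than under 5'ss AMO, by 0.38 and 0.34 without PDGF-AA and by 0.59 and 0.26 with it. Its averaged difference was -0.39 (SE 0.16; limma adjusted p of 1, and 0.243 with the block). Vcan was lower by 0.17 and 0.14 without PDGF-AA and by 0.03 and 0.11 with it, for an average of -0.11 (SE 0.062). Without the array high in adipocyte markers the averages were -0.41 for Tnfaip6 and -0.13 for Vcan.

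Over same-numbered arrays, Has2, Tnfaip6 and Vcan (3 of 7 members) were lower under pA AMO than 5'ss AMO in 4 of 4 pairings. The same held for 10% of all clusters and 12.4% of those above the dim mark. Has2 and Vcan, 2 of 7, did not overlap between the 4 pA AMO arrays and the 4 5'ss AMO arrays, beside 1.65% of all clusters in that direction. The remaining averages were 0.06 for Cd44, -0.02 for Hyal2, -0.03 for Has1 and -0.04 for Has3. Each of these 4 averages was smaller than its standard error. Leaving out the array high in adipocyte markers, they were 0.02, -0.06, -0.05 and -0.03 in the same order.

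**Figure D3:**
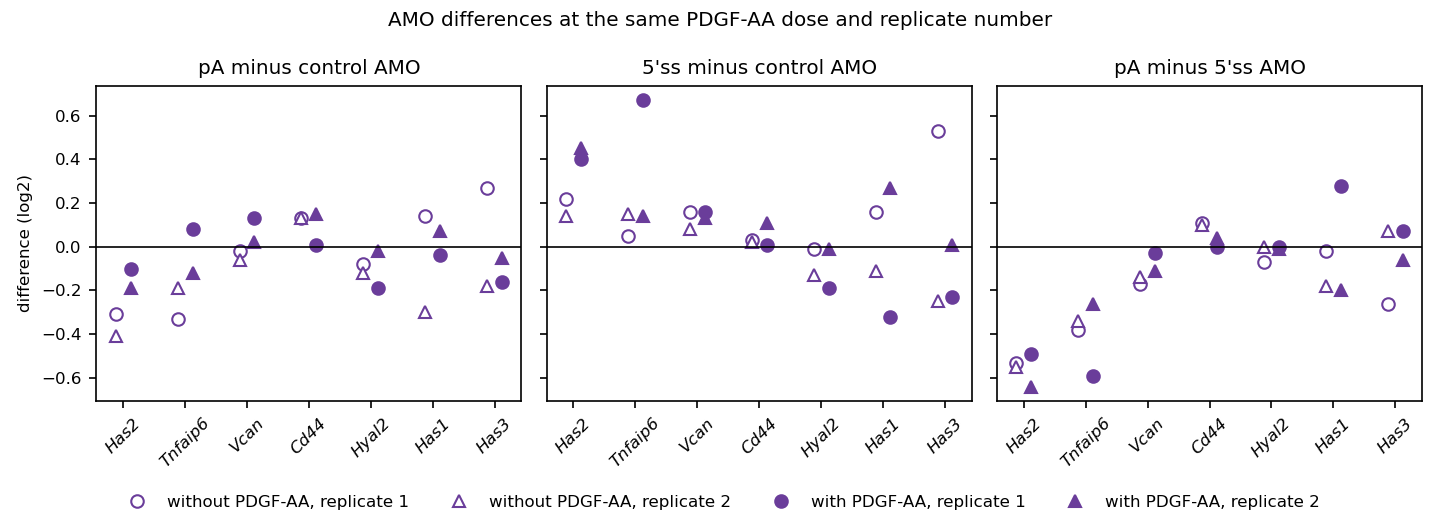
Differences in log2 level (vertical axis) of the 7 members (horizontal axis) between AMOs, each point 1 array minus the same-numbered array at the same PDGF-AA dose (open without, filled with PDGF-AA; circles replicate 1, triangles replicate 2). In the panel of pA minus 5'ss AMO all 4 Has2 points lie between -0.64 and -0.49, and Has1 and Has3 points scatter on both sides of 0.

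Against control AMO, Has2 was higher under 5'ss AMO and lower under pA AMO. These comparisons share the 4 control AMO arrays, so their differences are not independent of each other. With 5'ss AMO, Has2 was higher than under control AMO by 0.22 and 0.14 without PDGF-AA and by 0.40 and 0.45 with it, for an average of 0.30 (SE 0.114; limma adjusted p of 0.995, and 0.143 with the block). With pA AMO it was lower by 0.31 and 0.41 without PDGF-AA and by 0.10 and 0.19 with it, for an average of -0.25 (SE 0.114; limma adjusted p of 1, and 0.36 with the block). In neither comparison did the 4 arrays separate from the 4 control arrays.

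For 5'ss AMO, 4 of 7 members (Has2, Tnfaip6, Vcan and Cd44) were higher than under control AMO in 4 of 4 pairings. The same held for 7.78% of all clusters and 10.6% of those above the dim mark, where these 4 lie. Hyal2 alone was lower in all 4, beside 9.07% of all clusters and 7.81% of those above the dim mark. Vcan was the only member whose arrays did not overlap, beside 1.26% of all clusters, with an average of 0.13 (SE 0.062). Tnfaip6 averaged 0.25 (SE 0.16), of which the difference of 0.67 in replicate 1 with PDGF-AA was the largest, against 0.14 in replicate 2. That difference uses the array high in adipocyte markers and replicate 1 of control AMO with PDGF-AA, the lowest array for Tnfaip6. Leaving out each array in turn gave 0.11 to 0.40 for the Tnfaip6 average. Without the array high in adipocyte markers the averages were 0.39 for Has2, 0.27 for Tnfaip6, 0.15 for Vcan, 0.08 for Cd44 and -0.05 for Hyal2. No member passed in the limma fits with or without the block, beside 0.0138% of clusters with it (3 clusters) and 0% without it. At an unadjusted p under 0.05 without the block there was 1 (Has2), beside 4.8% of clusters. With the block there were 3 of 7 (Has2, Tnfaip6 and Vcan), beside 12.4% of clusters.

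For pA AMO, Has2 and Hyal2 (2 of 7) were lower than under control AMO in 4 of 4 pairings. The same held for 9.1% of all clusters and 9.06% of those above the dim mark. Cd44 was higher in all 4, beside 5.92% of all clusters and 7.7% of those above the dim mark. Its average was 0.11 (SE 0.0708), and Hyal2 averaged -0.10 (SE 0.0741). Tnfaip6 averaged -0.14 (SE 0.16) and was lower in 3 of the 4 pairings, by 0.33, 0.19 and 0.12, and 0.08 higher in replicate 1 with PDGF-AA. No member passed in the limma fits with or without the block, beside 0% of clusters in each. At an unadjusted p under 0.05 there was again Has2 alone without the block, beside 3.25% of clusters. It was also alone with the block, beside 9% of clusters.

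Has2 and Cd44 were lower with PDGF-AA than without it at every AMO and replicate number, by small amounts. Has2 was lower by 0.40 and 0.32 under control AMO, by 0.19 and 0.09 under pA AMO and by 0.22 and 0.01 under 5'ss AMO. Cd44 was lower by 0.11 and 0.10, by 0.24 and 0.07, and by 0.13 and 0.01 in the same order. These 2 of 7 members were lower in 6 of 6 pairings beside 2.3% of all clusters and 3.17% of those above the dim mark. Of the 7 members, 0 separated the 6 arrays with PDGF-AA from the 6 without, beside 0.115% of clusters lower and 0.165% higher.

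Averaged over AMOs, the PDGF-AA difference was -0.21 (SE 0.0929) for Has2, with a limma adjusted p of 1 and of 0.211 with the replicate block. It was -0.11 (SE 0.0578) for Cd44, -0.12 (SE 0.131) for Tnfaip6, -0.10 (SE 0.0605) for Hyal2 and -0.07 (SE 0.109) for Has1. The averages for Has3 and Vcan were 0.02 and 0.00. No member passed in the limma fit with the block, beside 0.0964% of clusters (21), or without it, beside 0%. At an unadjusted p under 0.05 without the block there were 0 members, beside 3.39% of clusters. With the block there were 3 of 7 (Has2, Cd44 and Hyal2), beside 8.02% of clusters. Without the array high in adipocyte markers the averages were -0.14 for Has2, -0.08 for Cd44, -0.11 for Tnfaip6, -0.07 for Hyal2 and -0.06 for Has1. Leaving out each of the 12 arrays in turn gave -0.22 to -0.02 for Tnfaip6, the latter without replicate 1 of control AMO with PDGF-AA, and -0.16 to 0.01 for Has1.

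**Figure D4:**
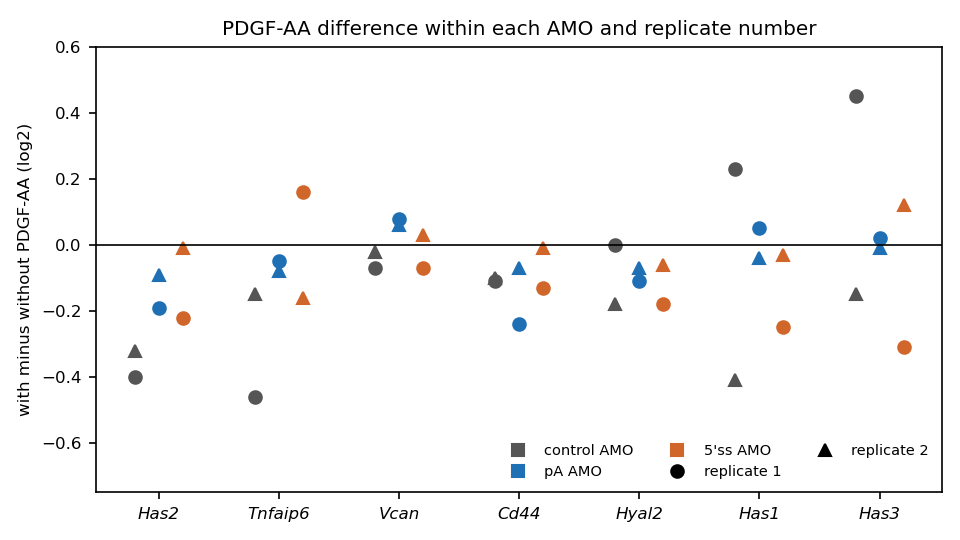
Difference in log2 level with minus without PDGF-AA (vertical axis) for the 7 members (horizontal axis), each point 1 AMO and replicate number (colours AMOs; circles replicate 1, triangles replicate 2). All 6 points of Has2 and of Cd44 lie below 0, from -0.40 to -0.01 for Has2.

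The PDGF-AA difference of Has2 was -0.36 (SE 0.161) under control AMO, -0.14 (SE 0.161) under pA AMO and -0.12 (SE 0.161) under 5'ss AMO. The difference between these values was tested directly: it was 0.24 (SE 0.227) for 5'ss AMO minus control AMO and 0.22 (SE 0.227) for pA AMO minus control AMO, both with a limma adjusted p of 1. Without the array high in adipocyte markers, the value under 5'ss AMO was 0.07 and the difference for 5'ss AMO minus control AMO was 0.43. Over all 12 single arrays left out, that difference ran from 0.06 to 0.43. For Tnfaip6 the value was -0.30 (SE 0.226) under control AMO, where the replicates gave -0.46 and -0.15, against -0.06 under pA AMO and -0.00 under 5'ss AMO. These data do not resolve whether the PDGF-AA difference of either gene depends on the AMO.

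Over the 12 arrays, the level of Has2 ran most closely with those of Myc (Pearson r = 0.96), a growth-promoting transcription factor, Sox9 (0.94), a transcription factor of cartilage, and Slc2a13 (0.93), a myo-inositol transporter. Among the members, Has2 ran with Tnfaip6 (r = 0.87) and Vcan (0.71) more than with Hyal2 (0.47), Cd44 (0.23) or Has1 (-0.10). Over the 6 group means, r was 0.98 with Tnfaip6, 0.72 with Vcan, 0.53 with Has1, 0.36 with Hyal2 and 0.02 with Cd44. The genes nearest to Tnfaip6 were Dapk1 (0.98), Cd1d1 (0.97) and Cntfr (0.96), and those nearest to Has1 were Cox18 (0.91), Gpsm1 (0.90) and Taf10 (0.89). Each value over the arrays describes 12 arrays that share groups, replicate numbers and RMA normalization. Each leading gene was picked as the best among single-symbol clusters above the dim mark. Predicted genes, small RNAs and olfactory receptors were passed over.

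**Figure D5:**
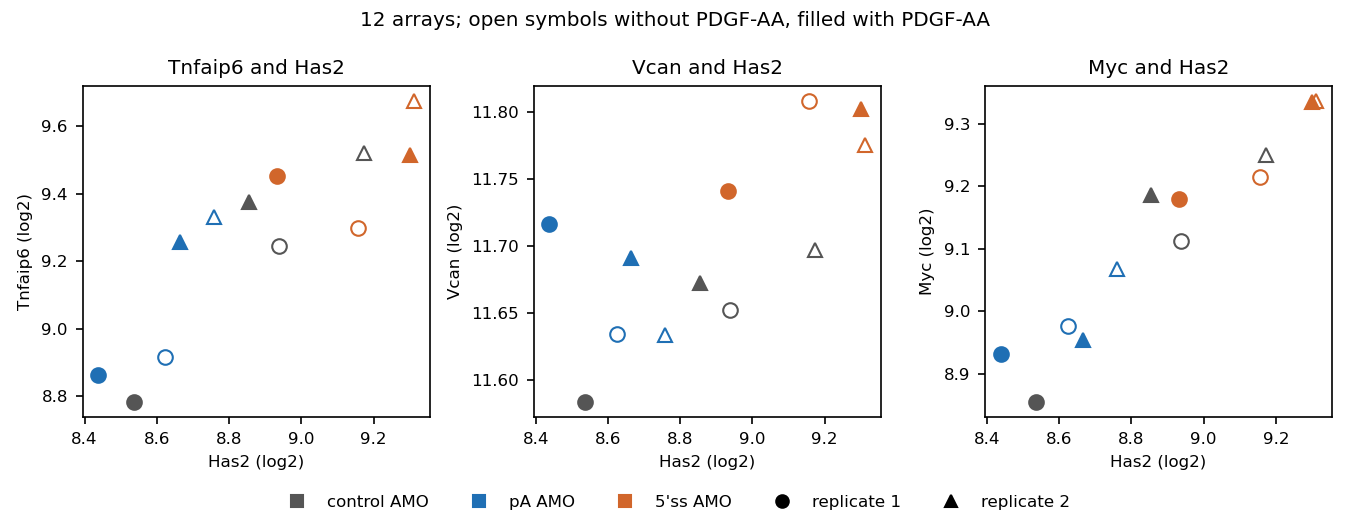
RMA log2 level of Tnfaip6, Vcan and Myc (vertical axes) against that of Has2 (horizontal axis) on the 12 arrays (colours AMOs; open without, filled with PDGF-AA; circles replicate 1, triangles replicate 2). Pearson r over the 12 arrays is 0.87 for Tnfaip6, 0.71 for Vcan and 0.96 for Myc, and the 5'ss AMO arrays lie to the right of the pA AMO arrays.

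The other genes of the pathway were taken as 6 lists with 50 measured genes, 34 of them above the dim mark. In each of the 4 averaged comparisons, 0 of these genes passed in the limma fits with or without the replicate block. Among the 8 enzymes that make the UDP-sugar precursors, 6 were above 0 for PDGF-AA, beside 50.8% of all clusters. Of these 6, Gfpt1 and Nagk rounded to 0.00, and the list median was 0.01, beside 0.001 over all clusters. The list ran from Ugp2, which makes UDP-glucose, at 0.16 (SE 0.0802) to Pgm3 at -0.08 (SE 0.0808). With pA AMO against control AMO all 8 were above 0, with a median of 0.05 beside -0.011 over all clusters, of which 45.1% were above 0. With 5'ss AMO against control AMO 5 of 8 were above 0, beside 46.6% of all clusters. The ends were Gnpnat1, an acetyltransferase of the UDP-N-acetylglucosamine route, at 0.20 (SE 0.114) and Gfpt1, the entry enzyme of that route, at -0.07 (SE 0.0774).

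Of the 9 other turnover genes, 8 had a cluster and 5 were above the dim mark. The one that differed most was Cemip, a hyaluronan-binding protein that is needed for hyaluronan breakdown in fibroblasts. Without PDGF-AA it read 7.65 and 7.32 under control AMO, 7.81 and 7.82 under pA AMO and 7.73 and 7.77 under 5'ss AMO. With PDGF-AA it read 7.24 and 7.11, 7.66 and 7.31, and 7.77 and 7.95. The arrays under 5'ss AMO were all above the control arrays, as 1.26% of all clusters were, and the averaged difference was 0.47 (SE 0.103; limma adjusted p of 0.612, and 0.146 with the block). It was 0.52 without the array high in adipocyte markers. Cemip was 0.32 (SE 0.103) higher under pA AMO than under control AMO and -0.18 (SE 0.0838) for PDGF-AA (-0.15 without that array), where Hyal3 was at the other end at 0.09. In the 5'ss AMO comparison Hexa, a lysosomal hexosaminidase, was the lowest of the list above the dim mark at -0.00. There 5 of 8 were above 0, beside 46.6% of all clusters.

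Among 6 versican-cleaving proteases, Adamts4 and Adamts1 stood at the ends. Adamts4 read 7.71 and 7.55 under control AMO, 7.39 and 7.33 under pA AMO and 7.91 and 7.85 under 5'ss AMO when PDGF-AA was absent. With PDGF-AA it read 7.50 and 7.30, 7.33 and 7.43, and 7.67 and 7.90. It was 0.32 (SE 0.083) higher under 5'ss AMO than under control AMO and -0.46 for pA AMO against 5'ss AMO (limma adjusted p of 0.702, and 0.158 with the block), and its 4 arrays under pA AMO lay below the 4 under 5'ss AMO, as in 1.65% of all clusters. Without the array high in adipocyte markers these differences were 0.38 and -0.52. Adamts5 was at the low end for 5'ss AMO at -0.13. Adamts1 was 0.22 (SE 0.0563) higher with PDGF-AA, between 10.15 and 10.29 on the 6 arrays without it and between 10.33 and 10.52 on the 6 with it, a separation found in 0.165% of all clusters. Its limma adjusted p was 0.66 and 0.188 with the block, and the difference was 0.24 without the array high in adipocyte markers. Cemip, Adamts4 and Adamts1 are the ends of lists that hold 50 genes in all, so such separations among them are a description.

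The 15 other hyaluronan-binding proteins and receptors had medians of 0.01 for PDGF-AA and -0.04 for 5'ss AMO against control AMO. Their ends above the dim mark were C1qbp (-0.07) and Hapln2 (0.04) for PDGF-AA, and Hapln2 (-0.19) and C1qbp (0.08) for 5'ss AMO. Among the 7 inter-alpha-inhibitor and pentraxin partners of Tnfaip6, 3 were above the dim mark: Ptx3, a pentraxin of the hyaluronan matrix, differed by 0.02 for PDGF-AA and 0.06 for 5'ss AMO, Itih5 by 0.05 for PDGF-AA, and Itih2 by -0.05 for 5'ss AMO. The 6 Cd44 linkers and sheddases ran from Adam10 (-0.04) to Ezr (0.07) for PDGF-AA and from Adam17 (-0.04) to Rdx (0.05) for 5'ss AMO. In these comparisons, no gene of these 3 lists named here differed by more than 0.19. Hmmr, of the first of them, differed by 0.37 for pA AMO against control AMO and is described at the end.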

How the data were processed

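The 12 arrays fall into 6 groups of 2 by their labels. The authors deposited log2 expression values, for which the submitters' processing notes name RMA and Affymetrix Expression Console (versions not given in the sources used here). RMA subtracts background, makes all arrays follow a common distribution and summarises the probes of a cluster, so a change is relative to other genes. No scanner files were used, and precision is limited by how few arrays there are.

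Of 35556 clusters, 21789 have exactly 1 gene symbol in the platform annotation, 1621 several and 12146 none listed. The members and gene lists were chosen with earlier results of these data known. One mean per group was fitted to all 12 arrays with limma 3.58.1 in R 4.3.3 (6 residual degrees of freedom). The code of the fit was checked on simulated arrays with independent noise and planted PDGF-AA changes larger than any difference of the members. Same-numbered arrays did not vary together in that simulation, so it does not cover this feature of the data. Tests are two-sided and adjusted p-values are Benjamini-Hochberg values across the 21789 clusters, called below 0.05. For list genes with several clusters the brightest was used. All members with a cluster were tested in 14 comparisons, but values of members not named in a comparison are not given. Also named were the ends of each list above the dim mark for PDGF-AA and for 5'ss AMO against control AMO. The 3 genes most correlated with each bright member that spans at least 0.5 were named too. The labels do not say whether same-numbered replicates share mice, so p-values measure the spread between these samples. Deviations of same-numbered arrays correlated at 0.13 to 0.42 over all clusters in all 15 pairs of groups, above the criterion of 0.1, and for 12 of 12 arrays the closest array carried the same number. By this hint from the data the numbers pair the samples. Values of the blocked fit (5 residual degrees of freedom) are also given for the averaged comparisons. Other settings are given in the closing section.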

Additional observations from a re-analysis of the deposited data

Results flagged for a closer look

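Vcan had a PDGF-AA difference of opposite sign with pA AMO (0.08 and 0.06 in replicates 1 and 2) and with control AMO (-0.07 and -0.02). The difference between the AMOs was 0.12 (SE 0.124) on the log2 scale. Every sample of each group moved its own way, but limma's test of the difference itself gave an adjusted p of 1, and the groups of 2 arrays are too small for a check of single outlying samples.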

How the results depend on the processing

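With the replicate number as a block, 1 member (Has2) passed for pA AMO against 5'ss AMO averaged over PDGF-AA, against 0 without the block, and the block changed no other member's call in the 14 comparisons. The number of members that passed was 0 under the 19 other settings with a test, which were a filter on dim clusters (6 members left), testing all clusters, a second quantile normalization, centring arrays on their median, moderation with trend and robust options, weighting arrays, fitting only the arrays compared (13 of 14 comparisons) and leaving out each of the 12 arrays. Of the 98 log2 differences (7 genes in 14 comparisons), 48 were at least 0.1 in size, and 12 of these turned sign without 1 array and 0 under the block or the other settings that keep all the arrays compared, which moved no value by more than 0.097. Each replicate number alone gives values without a test. Of the 28 values of the averaged comparisons, 10 differed in sign between replicates 1 and 2, and the largest move was 0.163. Has3 lay below the dim mark, so its differences are to be read with caution. The SD within groups was largest for Tnfaip6 (0.274), followed by Has1 (0.22) and Has3 (0.203). With 2 arrays a group a single array moves every group mean.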

Other observations

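Hmmr, a hyaluronan receptor that is also a mitotic spindle protein, was 0.37 (SE 0.122) higher with pA AMO than with control AMO and 0.29 (SE 0.122) higher than with 5'ss AMO, averaged over PDGF-AA, with limma adjusted p of 1 for both and of 0.484 and 0.556 with the replicate block. Without replicate 1 of 5'ss AMO with PDGF-AA, the array high in adipocyte markers, the latter difference was 0.19. Hmmr was singled out after its values were seen.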
